A study of Mus musculus with 24 samples.

Results

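Acute-phase proteins are plasma proteins that the liver releases in amounts that change with injury and inflammation. The 10 genes examined were the serum amyloid A genes *Saa1*, *Saa2* and *Saa3*, the orosomucoid genes *Orm1* and *Orm2*, haptoglobin (*Hp*), hemopexin (*Hpx*), lipocalin 2 (*Lcn2*), *Itih4* and *Serpina3n*. They were taken by gene symbol, with no measured value in the rule, but were chosen with earlier results of these data known. They make up 10 of the 24411 genes counted. All 10 had enough reads to be tested in every comparison.

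The RNA came from whole livers of male, 2.5-month-old mice that had been fasted for about 16 h by 0 h. They carried floxed *E2f7* and *E2f8* alleles and an R26R-mTmG reporter on a mixed, mainly FVB background. In liver-specific knockout (LKO) mice, an Alb-Cre transgene, which uses the albumin promoter, deletes *E2f7* and *E2f8* from early life, and the controls were littermates without Cre. In hepatocyte-specific knockout (HKO) mice, AAV8-TBG-Cre, a virus with a hepatocyte promoter, deleted the same genes at 2 months of age, and the controls received AAV8-TBG-Null. Single mice were sequenced at 0 h, 3 null and 3 HKO in that cohort and 4 control and 4 LKO in the other. At 12, 24, 48, 72 and 96 h after 300 mg/kg acetaminophen (APAP), which injures hepatocytes, each genotype of the LKO cohort gave 1 library made from 3 pooled mice. The spread between mice at those times was thus not measured. APAP was given at the end of the fast, so time after APAP runs together with time since the fast. Their parts in a change from 0 h cannot be told apart. The libraries held 12665686 to 19499897 reads on genes (median, 16500385.5), and 3 counts, taken as the lowest detectable level, equaled 0.144 to 0.253 CPM. CPM are read counts scaled to a common library size with TMM factors.

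The whole-gene count of *E2f8*, which includes exons outside the deleted region, was not lower in the libraries labelled as knockouts. It was 18.2, 26.3 and 14.8 CPM in null mice and 53.1, 83.4 and 30.6 CPM in mice labelled HKO. It was 11.8 to 18.9 CPM in control mice and 18.0 to 34.1 CPM in mice labelled LKO. The pools labelled LKO had 14.7 to 46.4 CPM and the control pools 4.18 to 13.6 CPM. *E2f7* was at 1.33 CPM or less in all 14 mice at 0 h. Because the count spans the whole gene, it does not test the deletion, exon counts were not analysed here, and every direction below is between libraries as labelled.

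In the acute-phase response, cytokines such as IL-6 and IL-1 reach the hepatocyte and act through STAT3, C/EBP and NF-κB factors on the promoters of secreted proteins. Positive acute-phase genes rise, while negative ones, such as those for albumin and transthyretin, fall. Serum amyloid A proteins travel on high-density lipoprotein, orosomucoids bind small molecules in plasma, haptoglobin binds free hemoglobin, hemopexin binds free heme, and lipocalin 2 captures bacterial siderophores and so withholds iron. *Itih4* encodes an inter-alpha-trypsin inhibitor heavy chain and *Serpina3n* a serine protease inhibitor. In bulk liver, fewer cells of a type and less RNA per cell cannot be told apart.

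Several of these genes are close copies or neighbors. On chromosome 7 of GRCm38, *Saa1* (46740497 to 46742980) and *Saa2* (46751790 to 46754313) are transcribed away from each other, and *Saa3* (46711998 to 46715700) lies nearby. *Orm1* (63344560 to 63348163), *Orm3* (63356162 to 63359511) and *Orm2* (63362449 to 63365878) lie in this order on chromosome 4, all on the plus strand. The longest coding transcripts of *Saa1* and *Saa2* were 87.3% identical, and those of *Orm1* and *Orm2* were 91% identical. Of the 50-base windows of *Saa1*, 9.11% also occur in *Saa2*, and of those of *Orm1*, 20.4% also occur in *Orm2*. Reads were counted only where they mapped uniquely, so the levels within each of these pairs are less certain than the others. *Saa3* shared no such window with *Saa1* or *Saa2*.

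Promoter sequences are shown for *Saa1*, *Saa2*, *Orm2* and *Lcn2*, the genes with the largest differences between genotypes described below. Each is the 250 bases before the RefSeq start site in GRCm38.p6, written in the direction of transcription, with matches to the motifs in capitals. The *Saa1* and *Saa2* windows, chr7:46742981-46743230 (minus strand) and chr7:46751583-46751832 (plus strand), were 94.8% identical to each other, whereas the *Saa1* and *Saa3* windows were 48.9% identical. The *Orm2* window is chr4:63362199-63362448 (plus strand). The *Lcn2* window is chr2:32387740-32387989 (minus strand), which lies within the annotated span of the gene (32384633 to 32388252). The end of the *Saa2* window also lies within the annotated span of its gene, which starts at 46751790.
Saa1: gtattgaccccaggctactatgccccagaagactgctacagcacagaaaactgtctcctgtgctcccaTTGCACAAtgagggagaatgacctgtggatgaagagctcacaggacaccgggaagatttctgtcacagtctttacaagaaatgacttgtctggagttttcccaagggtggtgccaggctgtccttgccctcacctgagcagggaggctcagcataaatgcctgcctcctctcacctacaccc
Saa2: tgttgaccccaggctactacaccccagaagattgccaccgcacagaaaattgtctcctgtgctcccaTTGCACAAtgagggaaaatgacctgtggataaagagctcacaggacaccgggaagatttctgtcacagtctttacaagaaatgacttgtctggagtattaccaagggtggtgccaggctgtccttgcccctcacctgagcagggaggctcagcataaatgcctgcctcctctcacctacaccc
Orm2: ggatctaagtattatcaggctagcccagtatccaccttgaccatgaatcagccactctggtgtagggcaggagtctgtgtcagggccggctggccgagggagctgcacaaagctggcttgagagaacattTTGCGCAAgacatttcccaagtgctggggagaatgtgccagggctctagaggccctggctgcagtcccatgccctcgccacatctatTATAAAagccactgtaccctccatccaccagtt
Lcn2: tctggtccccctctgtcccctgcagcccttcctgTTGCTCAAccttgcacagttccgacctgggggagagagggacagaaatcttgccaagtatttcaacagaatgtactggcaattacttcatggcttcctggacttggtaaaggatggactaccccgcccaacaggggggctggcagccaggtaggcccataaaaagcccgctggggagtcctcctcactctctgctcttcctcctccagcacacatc

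The letters TTGCNNAA, with TTNNGCAA on the other strand, were taken as a C/EBP motif and occurred in 6 of the 8 members with a promoter in the RefSeq table (*Saa1*, *Saa2*, *Saa3*, *Orm2*, *Hpx* and *Lcn2*), against 9.56% of all 32851 promoters. In *Saa1* and *Saa2* the match was the same 8 letters at nearly the same place, 182 and 183 bases before the start site. The STAT letters TTCNNNGAA occurred in *Itih4* alone, 51 bases before its start, against 7.02% of promoters. A match to the NF-κB motif, on either strand, occurred in *Serpina3n* alone, against 4.11%. The TATA letters TATAAA, with TTTATA on the other strand, occurred in *Orm2* alone, 33 bases before its start, against 12.4%. A match describes the letters and is no evidence that a factor binds there.

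The question at 0 h was how these genes were set, and how much they varied, in fasted livers before APAP. Per kilobase of transcript, mean levels in the 4 control mice ran from *Hpx* (2560 CPM per kb) and *Hp* (2030 CPM per kb), through *Orm1* (867 CPM per kb), *Itih4* (590 CPM per kb), *Serpina3n* (262 CPM per kb) and *Saa1* (184 CPM per kb), to *Saa2* (26.6 CPM per kb), *Lcn2* (11.1 CPM per kb), *Orm2* (9.34 CPM per kb) and *Saa3* (2.18 CPM per kb). The ranges over the mice overlapped between *Hpx* and *Hp*, between *Serpina3n* and *Saa1*, among *Saa2*, *Lcn2* and *Orm2*, and between *Lcn2* and *Saa3*. The order within these is not resolved. The ranges of *Orm1* and *Itih4*, and of *Saa1* and *Saa2*, also overlapped, but the first of each was higher in every control mouse. The near-identical pairs were far apart in level, with *Orm1* well above *Orm2* and *Saa1* above *Saa2* in every mouse.

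Among control mice, *Saa1*, *Saa2* and *Lcn2* varied most, with SDs of 1.32, 1.36 and 1.52 on the log2 scale (n = 4). The SDs of the other genes were 0.15 to 0.40, with the scarce *Orm2* (0.23) like the abundant *Hpx* (0.23). *Hpx* was 3830 ± 605 CPM (SD, n = 4) and *Itih4* 2080 ± 224 CPM (SD, n = 4) in control mice. *Saa1* was 30.6, 214, 155 and 50 CPM in the same mice, and *Lcn2* was 1.71, 8.88, 23.4 and 6.52 CPM.

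**Figure D1:**
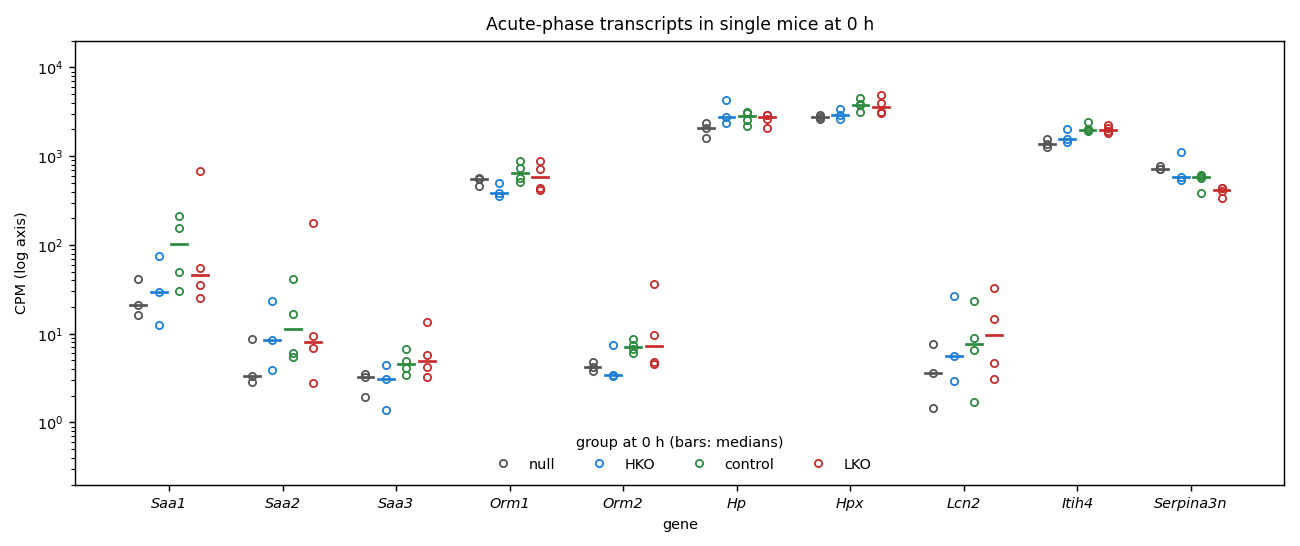
CPM of each gene (log axis) in the single mice at 0 h, by group, with circles for mice and bars for medians. *Saa1*, *Saa2* and *Lcn2* spread widely within each group, LKO mouse 1 lies far above the other LKO mice in *Saa1* (676 CPM) and *Saa2* (176 CPM), and *Hp*, *Hpx* and *Itih4* lie in narrow bands.

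None of the 10 genes was called between control and LKO mice at 0 h (edgeR, adjusted p under 0.05 with a change of 1.5-fold or more), where 0% of 12426 genes were called. At an unadjusted p under 0.05, 1 member and 352 genes passed, and DESeq2 called none of the members. The value of *Saa1* in mice labelled LKO was 676, 35.4, 25.1 and 55.5 CPM. LKO mouse 1 was thus above every control mouse, while the other LKO mice lay within or just below the control range. The fitted difference of *Saa1* (log2 fold change 0.82, SE 1.00, edgeR adjusted p = 0.999) changed sign to -1.54 when that mouse was left out. For *Saa2*, which was 176, 6.86, 2.82 and 9.40 CPM in LKO mice against 6.02, 41.2, 16.7 and 5.48 CPM in control mice, the log2 fold change of 1.5 (SE 1.15, edgeR adjusted p = 0.999) became -1.44 without it. The groups overlapped in all 10 genes (1.75% of genes did not overlap).

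LKO mouse 1 was also the highest of the 4 LKO mice in *Saa3* (13.4 CPM), *Orm2* (36.8 CPM), *Lcn2* (33.1 CPM), *Hpx* (4930 CPM) and *Itih4* (2230 CPM), and the lowest in *Serpina3n* (337 CPM). In that library the summed level of 10 macrophage markers was 399 CPM, against 169 to 209 CPM in the other LKO mice. That of 8 hepatocyte markers was 56600 CPM, against 74200 to 95100 CPM. The largest of these 8 is *Alb*, a negative acute-phase gene, which ran from 26400 to 61000 CPM over the LKO mice. The sum of the 11 measured neutrophil markers was 10.1 CPM, against 2.77 to 8.55 CPM. Their part in the levels of the acute-phase genes was not tested.

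*Serpina3n* was the gene with an unadjusted p under 0.05 between control and LKO mice. It was 386, 609, 597 and 573 CPM in control mice and 337, 435, 434 and 406 CPM in LKO mice, with a log2 fold change of -0.42 (SE 0.17, edgeR adjusted p = 0.999). Control mouse 1 lay within the LKO range, and the other control mice lay above it.

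In the HKO cohort, none of the 10 genes was called between null and HKO mice either, where 0.96% of 12397 genes were called. At an unadjusted p under 0.05, 2 members (*Hp* and *Orm1*) and 1598 genes passed, and DESeq2 called none of the members. *Hp* was 2360, 2090 and 1620 CPM in null mice and 4330, 2730 and 2390 CPM in mice labelled HKO. All 3 HKO values lay above all 3 null values, as in 1 of 10 members, while 18% of genes tested had groups that did not overlap. The log2 fold change of *Hp* was 0.64 (SE 0.22, edgeR adjusted p = 0.261). *Orm1* was 556, 457 and 563 CPM in null mice and 495, 382 and 356 CPM in HKO mice, with overlapping groups and a log2 fold change of -0.35 (SE 0.14, edgeR adjusted p = 0.348).

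*Lcn2* and *Saa2* had the largest fitted differences in the HKO cohort and also the largest errors. *Lcn2* was 7.61, 3.59 and 1.45 CPM in null mice and 26.9, 5.66 and 2.97 CPM in HKO mice (log2 fold change 1.49, SE 0.78, edgeR adjusted p = 0.491). *Saa2* was 8.71, 3.31 and 2.84 CPM in null mice and 23.4, 8.40 and 3.95 CPM in HKO mice (log2 fold change 1.26, SE 0.62, edgeR adjusted p = 0.441). Both were highest in HKO mouse 1, in which the neutrophil marker sum was 11.6 CPM, against 1.91 to 4.58 CPM in the other HKO mice and 0.632 to 2.41 CPM in null mice. The part of those cells in the levels was not tested.

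The differences found in the LKO and HKO cohorts could also be set against each other, although the cohorts differ in virus and in age at deletion. No member was called for the LKO effect minus the HKO effect (0% of 12945 genes). At an unadjusted p under 0.05, 1 member (*Hp*, log2 difference -0.69, SE 0.30, edgeR adjusted p = 1.000) and 579 genes passed, and DESeq2 called none of the members.

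After APAP, the genes did not move as a block, and the genotypes took different courses. *Lcn2*, *Orm2* and *Serpina3n* were high by 12 h in both genotypes. *Saa1*, *Saa2*, *Orm1*, *Hpx* and *Itih4* reached their highest level in control pools only at 96 h. In LKO pools, 8 of 10 genes peaked earlier than in control pools and the other two, *Saa3* and *Serpina3n*, peaked at the same time. The changes below are set against the mean log2 CPM over that genotype's 4 mice at 0 h, so a fold is relative to their geometric mean (the 0 h mean below). They are descriptions of pools without replicates.

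**Figure D2:**
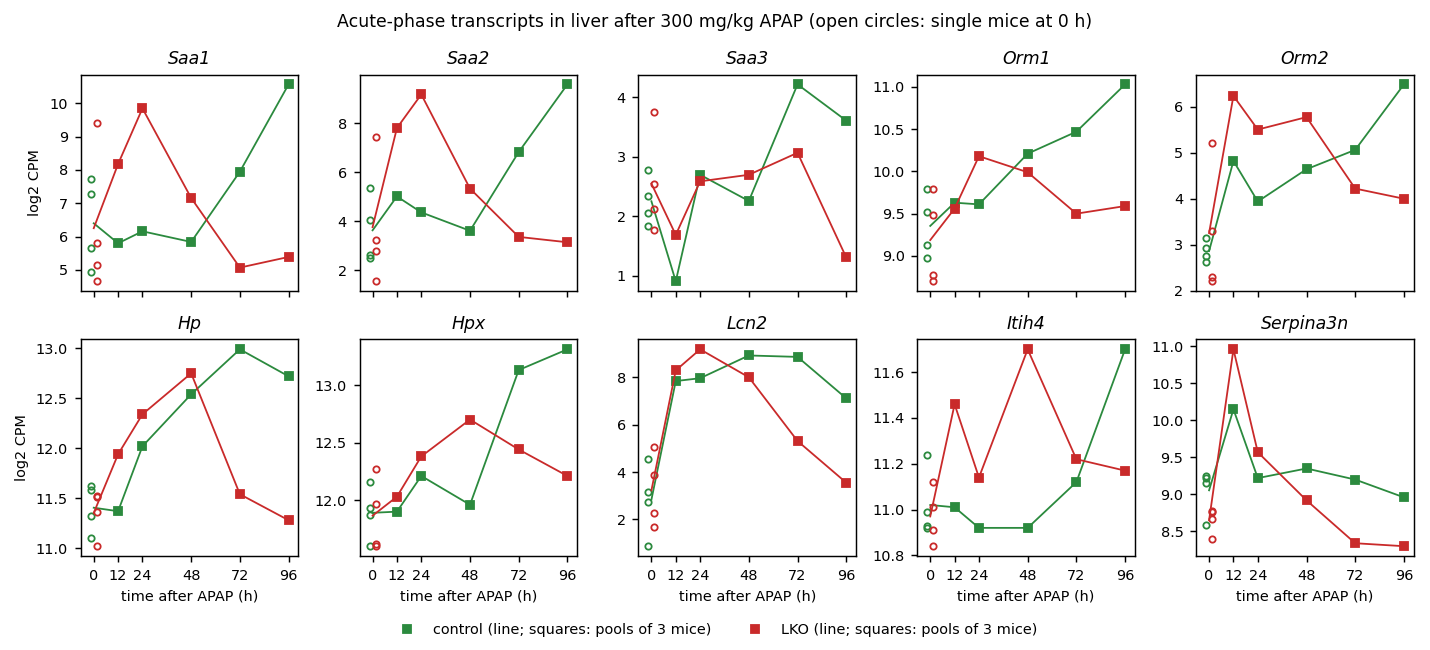
Log2 CPM of each gene against time after APAP, with open circles for single mice at 0 h, squares for pools of 3 mice and lines that start at the mean of the mice at 0 h, and with axes that differ between panels. Control levels of *Saa1*, *Saa2*, *Orm1*, *Orm2* and *Hpx* are highest at 96 h, whereas the LKO levels of these genes peak between 12 and 48 h.

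*Saa1* lay within the range of the control mice in the control pools up to 48 h (55.5 CPM at 12 h, 71.3 CPM at 24 h and 57.1 CPM at 48 h) and was 246 CPM at 72 h and 1520 CPM at 96 h. The last value was 17.9-fold the 0 h mean. In LKO pools it was 291 CPM at 12 h, 923 CPM at 24 h, 143 CPM at 48 h, 33.4 CPM at 72 h and 41.8 CPM at 96 h, with a peak 12.1-fold the 0 h mean (25.1-fold without LKO mouse 1). The control pools lay above the range of the control mice at 72 and 96 h, and the LKO pools lay above the range of the LKO mice at 24 h only. That LKO range reaches 676 CPM because of mouse 1.

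*Saa2* was highest at the same times as *Saa1*, but it differed at 12 h, when the control pool was 2.6-fold its 0 h mean (*Saa1*, 0.658-fold) and the LKO pool lay above the range of the LKO mice. It was 32.2, 20.6, 12.2, 113 and 772 CPM in control pools from 12 to 96 h, and 224, 581, 40.5, 10.2 and 8.77 CPM in LKO pools. Its peaks were 62.1-fold the 0 h mean in control pools (96 h) and 42.7-fold in LKO pools (24 h). The LKO fold was 100-fold without LKO mouse 1 and 25.6-fold without LKO mouse 3, so which genotype had the larger fold depends on single mice at 0 h.

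The share of *Saa2* among reads of *Saa1* and *Saa2* together also varied with time. At 0 h it was 9.72% to 16.4% in control mice and 10.1% to 20.6% in LKO mice. It was 36.7% (exact 95% CI, 34.1 to 39.3) in the control pool at 12 h and 43.5% (exact 95% CI, 42.4 to 44.5) in the LKO pool at 12 h, above every mouse at 0 h. It was 17.6% in the control pool at 48 h and 33.7% at 96 h, and in LKO pools it was 38.6% at 24 h and 17.3% at 96 h. The intervals cover counting error only. At 0 h in the HKO cohort the share was 17.5%, 13.4% and 15% in null mice and 23.7%, 22.3% and 23.8% in HKO mice. These ranges did not overlap, as was the case for the levels of 18% of all genes in this cohort.

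*Saa3*, which unlike *Saa1* and *Saa2* is known mainly from macrophages and other cells outside the hepatocyte, had few reads and a different course. It was 1.75, 6.36, 4.66, 18.5 and 12.1 CPM in control pools from 12 to 96 h and 3.11, 5.90, 6.39, 8.28 and 2.36 CPM in LKO pools. Of the pools it was highest at 72 h in both genotypes, at 3.89-fold the 0 h mean in control and 1.43-fold in LKO, where it lay within the range of the mice at 0 h. At 72 h the macrophage marker sum was also at its highest in each genotype, with 425 CPM in the control pool and 575 CPM in the LKO pool, while *Saa3* was higher in the control pool. The part of macrophages in the level of *Saa3* was not tested.

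Of the orosomucoids, the scarce *Orm2* had larger peak folds than the abundant *Orm1*. *Orm1* was higher at each time from 48 h on in control pools (795, 783, 1180, 1420 and 2100 CPM from 12 to 96 h) and had a lower peak in LKO pools (756, 1160, 1020, 722 and 770 CPM). *Orm2* was 28.2, 15.3, 24.9, 33.3 and 89.2 CPM in control pools, each above the range of the control mice, and 75.0, 45.1, 54.3, 18.6 and 15.9 CPM in LKO pools. *Orm2* thus reached 12.3-fold its 0 h mean in control pools at 96 h and 7.86-fold in LKO pools at 12 h (12.3-fold without LKO mouse 1). The peaks of *Orm1* were 3.2-fold at 96 h and 1.99-fold at 24 h.

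The scavengers of hemoglobin and heme peaked at 48 h or later in both genotypes. *Hp* was 2650, 4170, 5960, 8150 and 6750 CPM in control pools and 3920, 5190, 6910, 2980 and 2480 CPM in LKO pools. In the control pool at 12 h it was at 0.979-fold its 0 h mean, within the range of the mice, and in the LKO pool at 12 h it was 1.5-fold. Both genotypes had higher values at 24 and 48 h, and at 72 h the LKO pool was 1.14-fold its 0 h mean, just above the highest LKO mouse (2940 CPM). *Hpx* was 3830, 4750, 3990, 8980 and 10100 CPM in control pools and 4170, 5340, 6660, 5550 and 4740 CPM in LKO pools, with peaks 2.67-fold and 1.78-fold the 0 h means.

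*Lcn2* was far above its 0 h level in both genotypes. It was 229, 249, 485, 466 and 138 CPM in control pools and 313, 581, 256, 39.6 and 11.6 CPM in LKO pools. The peaks were 68.1-fold the 0 h mean in control pools at 48 h and 62.1-fold in LKO pools at 24 h, the largest of the 10 genes in each genotype. That rank depends on single mice at 0 h: without control mouse 1 the control peak was 43.3-fold (*Saa2*, 49.1-fold), and without LKO mouse 1 the LKO peak was 94.8-fold (*Saa2*, 100-fold). At 96 h the control pool was still 19.3-fold its 0 h mean, whereas the LKO pool (1.25-fold) lay within the range of the LKO mice.

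Neutrophils store lipocalin 2 in granules, and part of their markers were also higher after APAP. The sum of the 11 measured neutrophil markers was 17.6, 14.9, 33.6, 28.3 and 9.21 CPM in control pools and 18.3, 33.7, 10.7, 9.28 and 2.63 CPM in LKO pools, against 2.77 to 12.4 CPM in the mice of both genotypes at 0 h. It was highest at the same times as *Lcn2*, at 48 h in control and 24 h in LKO pools. At those times 8 of the 11 markers lay above the range of the mice at 0 h in each genotype, among them *S100a8* (8.56 CPM in the control pool at 48 h) and *S100a9* (11.4 CPM). The granule genes *Mpo* and *Ltf* lay within that range in both. In the LKO pool at 48 h, where *Lcn2* was 27.4-fold its 0 h mean, the sum (10.7 CPM) was just above the LKO mice (2.77 to 10.1 CPM). There 4 of the 11 markers lay above the range of those mice. In the control pool at 96 h, where *Lcn2* was 19.3-fold, the sum (9.21 CPM) was within the range of the control mice (2.83 to 12.4 CPM). There 2 of the 11 markers lay above that range. Up to 8 of the 11 markers had no reads in a library. The part of neutrophils in the level of *Lcn2* was not tested.

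**Figure D3:**
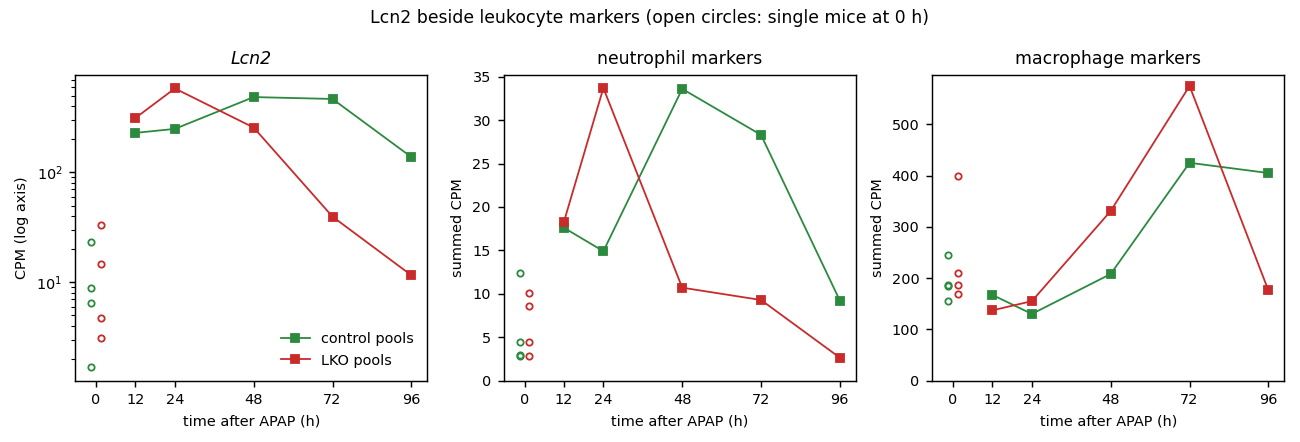
*Lcn2* (log axis), the summed neutrophil markers and the summed macrophage markers in CPM against time after APAP, with open circles for mice at 0 h and squares for pools. *Lcn2* and the neutrophil sum are highest at 48 h in control pools and at 24 h in LKO pools, and the macrophage sum is highest at 72 h in both.

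*Serpina3n* was highest at 12 h in both genotypes, with 1140 CPM in the control pool (2.13-fold the 0 h mean) and 1990 CPM in the LKO pool (4.97-fold). It was 497 CPM and 315 CPM at 96 h. *Itih4* moved least, between 1940 and 3330 CPM in control pools and between 2250 and 3320 CPM in LKO pools, and was highest at 96 h in control and at 48 h in LKO pools.

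Each time point was then tested against 0 h over both genotypes, as the 2 pools at that time against the 8 mice at 0 h. These tests share 1 fit to the 18 libraries of the LKO cohort, so the pools at other times enter the error too. At 12 h, 3 of 10 genes were higher (31.5% of 13328 genes were called, 17% higher). These were *Lcn2* (log2 fold change 4.54, SE 0.82, edgeR adjusted p = 0.000593), *Orm2* (2.28, SE 0.63, edgeR adjusted p = 0.00991) and *Serpina3n* (1.83, SE 0.24, edgeR adjusted p = 5.03e-05). The share of members called was close to that of all genes.

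At 24 h, *Lcn2* alone was called (5.15, SE 0.83, edgeR adjusted p = 0.000382), against 26.1% of genes (14.1% higher). *Saa2* (2.83, SE 1.36, edgeR adjusted p = 0.129) was high in the LKO pool alone, and without LKO mouse 1 it was called (5.06, edgeR adjusted p = 0.0139), with 3 members called in all. At 48 h, *Lcn2* (4.87, SE 0.83, edgeR adjusted p = 0.000807), *Orm2* (1.88, SE 0.63, edgeR adjusted p = 0.0487) and *Hp* (1.27, SE 0.31, edgeR adjusted p = 0.00963) were higher, against 16.7% of genes called in either direction (10% higher).

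At 72 h, *Lcn2* (4.22, SE 0.90, edgeR adjusted p = 0.00357), *Hp* (1.01, SE 0.32, edgeR adjusted p = 0.0352) and *Hpx* (0.92, SE 0.27, edgeR adjusted p = 0.0244) were higher, against 16.8% of genes (11% higher). The sum of 8 stellate cell markers was 1130 CPM in the control pool and 831 CPM in the LKO pool at 72 h, against 143 to 261 CPM in the mice at 0 h, and its part in these changes was not tested. Without LKO mouse 1, 5 members were called, with *Saa3* (1.51, edgeR adjusted p = 0.0161) among them.

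At 96 h, none of the 10 genes was called by edgeR, where 0.465% of genes were called. At an unadjusted p under 0.05, 8 members and 2112 genes passed, and DESeq2 called 3 members (*Orm1*, *Orm2* and *Hpx*) and 342 of 13328 genes. The pools of the genotypes were far apart at 96 h, and that distance enters the error of the tests at every time, not only at 96 h. *Saa2* had a log2 fold change of 4.31 (SE 1.49, edgeR adjusted p = 0.181) and *Saa1* of 2.66 (SE 1.25, edgeR adjusted p = 0.309). Without LKO mouse 1, *Orm2* was called (2.94, edgeR adjusted p = 0.0188).

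Control and LKO pools were then compared over 12 to 96 h with time as a block, which asks for a difference shared by the times. None of the 10 genes was called, against 0.579% of 12782 genes, none had an unadjusted p under 0.05 (2284 genes did), and DESeq2 called none. The fitted values ran from -1.25 for *Lcn2* (SE 0.73, edgeR adjusted p = 0.387) to 0.61 for *Saa2* (SE 1.79, edgeR adjusted p = 0.891). The mean change from 0 h was called as different between genotypes in none of the 10 genes by edgeR or DESeq2 (0% of 13328 genes by edgeR), none of them had an unadjusted p under 0.05 (1285 genes did), and the value for *Lcn2* was -1.70 (SE 1.24, edgeR adjusted p = 0.675). The large error of *Saa2* came with values of opposite sign at early and late times.

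At 12 h, 9 of 10 genes were higher in the pool labelled LKO than in the control pool, with a median log2 difference of 0.67 (median of 13328 genes, -0.01). Differences of at least 2-fold were seen in 3 genes, *Saa1* (2.38), *Saa2* (2.79) and *Orm2* (1.41), against 8.82% of genes higher by that much. Between the same pools the hepatocyte marker sum was 107000 CPM in control and 68800 CPM in LKO. Its largest marker is *Alb* (mean 60600 CPM in control mice at 0 h), a negative acute-phase gene, which differed by -1.01 between these pools. The sum of 6 cholangiocyte markers was 143 CPM in control and 44 CPM in LKO, against 22.2 to 27.8 CPM in the mice at 0 h. The part of these cells in the differences was not tested. At 24 h, 9 of 10 were higher, with a median of 0.46 (all genes, 0.02). *Saa2* (4.81), *Saa1* (3.69), *Orm2* (1.56) and *Lcn2* (1.22) were at least 2-fold higher, against 2.93% of genes. At 48 h, 7 of 10 were higher, with a median of 0.59, and the same genes as at 12 h, *Saa2* (1.72), *Saa1* (1.32) and *Orm2* (1.12), were at least 2-fold higher, against 6.9% of genes.

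From 72 h the sign was the other way. At 72 h, 9 of 10 genes were lower in the LKO pool, with a median log2 difference of -1.06 (all genes, 0.02), and only *Itih4* (0.10) was not. *Lcn2* (-3.55), *Saa2* (-3.46), *Saa1* (-2.88), *Hp* (-1.45) and *Saa3* (-1.15) were at least 2-fold lower, against 6.1% of genes. At 96 h, all 10 were lower, with a median of -1.87 (all genes, 0.01), and 8 were at least 2-fold lower, against 4.16% of genes. The differences at 96 h were -6.44 for *Saa2*, -5.17 for *Saa1*, -3.56 for *Lcn2*, -2.48 for *Orm2*, -2.30 for *Saa3*, -1.45 for *Orm1*, -1.44 for *Hp* and -1.10 for *Hpx*. *Itih4* (-0.54) and *Serpina3n* (-0.66) differed least. The macrophage marker sum at 96 h was 405 CPM in the control pool and 176 CPM in the LKO pool, and the neutrophil sum 9.21 and 2.63 CPM. Their part in the differences was not tested. These are single pools, with no replicate check at any time.

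**Figure D4:**
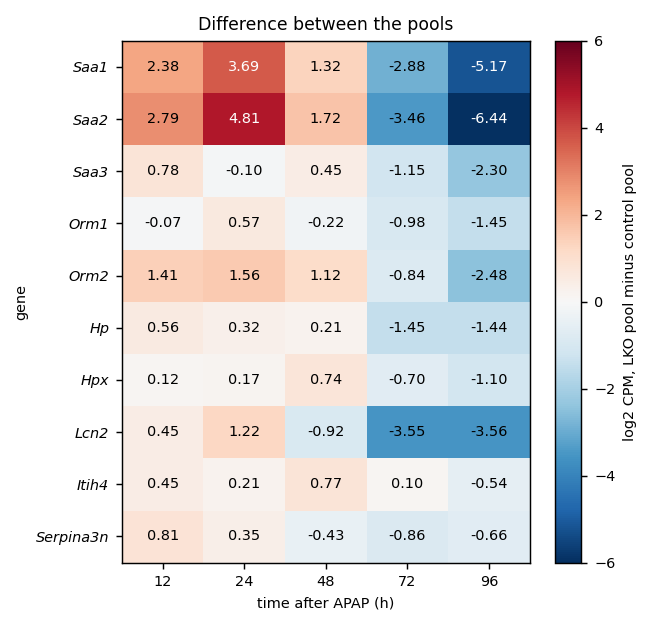
Log2 CPM of the LKO pool minus that of the control pool for each gene (rows) and time after APAP (columns), with red for higher and blue for lower in LKO. Positive values dominate from 12 to 48 h, and values at 96 h are all negative, from -0.54 for *Itih4* to -6.44 for *Saa2*.

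Because the sign of the difference changed between 48 and 72 h, the difference at 72 to 96 h minus that at 12 to 48 h was tested across all genes, with time as a block. The times were grouped after the values had been seen, so the p-values are not independent of the pattern. Of 12782 genes, 0.149% were called (19 genes), 0.0626% with a lower value in LKO late than early, and 4 of those were members. They were *Saa1* (log2 difference -6.50, SE 0.83, edgeR adjusted p = 0.0208), *Saa2* (-8.06, SE 1.09, edgeR adjusted p = 0.025), *Lcn2* (-3.83, SE 0.55, edgeR adjusted p = 0.0381) and *Orm2* (-3.04, SE 0.45, edgeR adjusted p = 0.0401). With the times taken apart, 3 members (*Saa1*, *Saa2* and *Orm2*) were called higher in LKO pools over 12 to 48 h, against 0.179% of genes. Over 72 to 96 h, 8 members were called lower, all but *Hpx* and *Itih4*, against 2.88% of genes. With 1 pool per genotype and time, these fits measure no spread between mice. Their error comes from agreement between a few times and from the spread of other genes. In the test between the periods, the other members that had an unadjusted p under 0.05, as 1343 genes did, were *Hp* (-1.82), *Saa3* (-2.09), *Orm1* (-1.31), *Hpx* (-1.25) and *Serpina3n* (-1.01), and *Itih4* (-0.70) did not. No gene at all was called when the 12 h or the 24 h pools were left out, although the values of *Saa1* (-6.55 and -5.89) and *Saa2* (-8.27 and -7.24) stayed close.

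Other genes of the acute-phase response were read in the same time tests. Of 24 other positive acute-phase genes tested, 12 rose and 2 fell at 12 h, against 31.5% of genes called in either direction. *Cd14*, the endotoxin co-receptor, rose by a log2 fold change of 4.00 (SE 0.48, edgeR adjusted p = 2.26e-05), and the metallothionein genes *Mt2* (3.27, SE 0.95, edgeR adjusted p = 0.0139) and *Mt1* (3.16, SE 0.75, edgeR adjusted p = 0.00408) rose as well. The genes that fell were *Crp* (-1.62, SE 0.34, edgeR adjusted p = 0.00175) and *Saa4* (-1.83, SE 0.51, edgeR adjusted p = 0.0103), which were named after their values had been seen. At 24 h, 10 rose and none fell, against 14.1% of genes higher. At 48 h, 7 rose, against 10% of genes higher, led by the hepatokine *Fgl1* (2.41, SE 0.43, edgeR adjusted p = 0.00124), and 4 rose at 72 h, against 11% of genes higher. None was called at 96 h, where the calls over all genes were few as well.

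In the cytokine and receptor arm, 10 of 13 genes were tested. At 12 h, against 31.5% of genes called (17% higher), 4 rose, among them the oncostatin M receptor *Osmr* (1.5, SE 0.27, edgeR adjusted p = 0.000589) and the TNF receptor *Tnfrsf1a* (1.43, SE 0.16, edgeR adjusted p = 1.13e-05), and 1 fell, the LIF receptor *Lifr* (-1.79, SE 0.47, edgeR adjusted p = 0.00719). *Il6* itself had too few reads to be tested, with 0 to 0.506 CPM over the 24 libraries and the highest value in the control pool at 48 h.

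In the signalling and transcription arm, 8 of 20 genes rose at 12 h and none fell, against 31.5% of genes called and 17% higher. They included *Nfkbiz* (2.32, SE 0.21, edgeR adjusted p = 1.62e-06), *Socs1* (1.84, SE 0.62, edgeR adjusted p = 0.0301) and *Socs3* (1.71, SE 0.45, edgeR adjusted p = 0.00789), a feedback inhibitor that STAT3 induces. For *Socs1* the pools went opposite ways, with 7.97-fold the 0 h mean in the control pool and 0.482-fold, below the range of the mice, in the LKO pool. *Stat3* itself, named after its values had been seen, rose as well (1.62, SE 0.20, edgeR adjusted p = 3.16e-05), with 428 CPM in the control pool and 389 CPM in the LKO pool at 12 h. At 24 h, 2 rose and 3 fell, against 26.1% of genes called. At 48 h, against 16.7% of genes called, 1 rose and 2 fell, namely *Cebpa* (-1.37, SE 0.20, edgeR adjusted p = 0.000221) and *Hnf4a* (-0.87, SE 0.24, edgeR adjusted p = 0.0183). Both encode hepatocyte transcription factors.

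Of the 12 negative acute-phase genes, all tested, 2 fell at 12 h and none rose, below the 31.5% of all genes called. These were *Serpina6* (-2.51, SE 0.67, edgeR adjusted p = 0.00849), which encodes the corticosteroid carrier of plasma, and *Ttr* (-0.97, SE 0.31, edgeR adjusted p = 0.0239), which encodes transthyretin. At 24 h, 2 fell and 1 rose, *Apoa1* (0.78, SE 0.28, edgeR adjusted p = 0.0447), against 26.1% of genes called. The median log2 fold change of the list was -0.13 at 12 h, -0.21 at 24 h and 0.18 at 96 h, against medians of 0, 0 and -0.02 over all genes.

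The cytokine gene *Lif* rose at 24 h (4.82, SE 0.85, edgeR adjusted p = 0.000753), 48 h (4.93, SE 0.85, edgeR adjusted p = 0.000877) and 72 h (4.10, SE 0.90, edgeR adjusted p = 0.00446). It was called at the same times as *Lcn2* from 24 h on. Its mean at 0 h was 0.0179 CPM in control and 0.0688 CPM in LKO mice, below the lowest detectable level, so its folds are uncertain. The rise was larger in control pools, at 16, 28.8 and 16.7-fold the 0 h mean at 24, 48 and 72 h. In LKO pools it was 6.99, 3.32 and 2.09-fold.

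Between genotypes, no gene of these lists was called at 0 h in either cohort or over 12 to 96 h by edgeR. At 96 h, 22 of the 24 other positive acute-phase genes were lower in the LKO than in the control pool, 7 of them at least 2-fold (4.16% of genes), with a median log2 difference of -0.46 (all genes, 0.01). The values ran from -2.89 for *Orm3*, the third orosomucoid gene, to 0.08 for *Vnn1*. At 12 h, 16 of the 24 were higher, none by 2-fold (8.82% of genes), with a median of 0.30. The other 8 were lower, 3 of them at least 2-fold (11.3% of genes) and *Cd14* most (-2.80). At 24 h, 15 were higher and 9 lower, none by 2-fold. At 48 h, 16 were higher, 4 by at least 2-fold (6.9% of genes), and 8 lower, 2 by at least 2-fold (8.74% of genes). At 72 h, 22 were lower, 10 by at least 2-fold (6.1% of genes). All 12 negative acute-phase genes were lower at 96 h too, none by 2-fold, with a median of -0.34. These values compare single pools.

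The genes whose course over the 24 libraries was most like that of a member were found from the root-mean-square (RMS) difference of centred log2 CPM, among 8007 genes with a mean of at least 10 CPM. The 24 points share their times, genotypes and, in the pools, single libraries, so this is a description. *Saa1* was nearest to *Saa2* (RMS 0.752), far closer than to the nearest gene that is not a member, *Gmppb* (1.30). *Hpx* was nearest to *Tmem176a* (0.236) and *Tmem176b* (0.244), and *Orm1* was nearer to *Hpx* (0.293) than to any such gene. For *Lcn2* the nearest gene was *Tnfrsf12a* (1.65), a distance to be read against its range of 8.53 over the libraries. For *Orm2* they were *Tuba1c* (0.931) and the serum amyloid P gene *Apcs* (0.937).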

How the data were processed

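Total liver RNA of 24 libraries was analysed: 14 single mice at 0 h and 10 pools of 3 mice. The deposited files hold read counts per gene, which the authors made with STAR against mm10, per the submitters' processing notes, after trimming with Trimmomatic. The gene annotation version is not given in the sources used here. Reads that map to several places are not counted, which lowers the counts of near-identical genes. The column of counts that disregards strand was used, and the 4 lines that name no gene (18.7% to 39.9% of reads) were left out. No column of other samples was present (0).

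Counts were filtered by expression within each comparison, scaled by TMM and tested with the quasi-likelihood test of edgeR 4.0.16 (limma 3.58.1, R 4.3.3). A gene was called at a Benjamini-Hochberg adjusted p under 0.05, over all genes tested, and a fold change of at least 1.5. DESeq2 1.42.0 was an alternative. Groups followed the labels: HKO against null and LKO against control at 0 h, LKO against control over 12 to 96 h with time as a block, each time against 0 h with genotype as a covariate, and the differences between these effects. Replicates at 0 h are individual mice, per the study's methods, and the pools have no replicates. Tests with pools take their error from agreement between times or from the mice at 0 h. Log2 CPM used a prior count of 2, and 3 counts were taken as the lowest detectable level. Intervals are exact binomial and cover counting error only.

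The 10 genes and all lists were chosen with earlier results of these data known. From the other lists, the 3 called genes with the largest change in a comparison could be named. The replicate numbers in the titles were checked and do not pair the mice. The scripts were tested on simulated data. Promoters are from RefSeq (GRCm38.p6), where 8 of the 10 members matched, and *Hp* and *Orm1* did not. Other settings tried were the scaling, the filter, the fold limit, a stranded count column, summed near-identical genes, a replicate block, single genotypes and leaving out each library or time.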

Additional observations from a re-analysis of the deposited data

Results flagged for a closer look

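*Serpina3n* in control mouse 1 at 0 h stood apart from the other control mice. It was 386 CPM, against 573 to 609 CPM in the other three, and the gap to the nearest mouse on the log2 scale was 0.867 of the range of the group. It was the only value to stand apart in 20 groups examined, and chance gives about 1 in 20.

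*Saa1*, *Saa2*, *Orm2* and *Lcn2* had a difference between genotypes that was not the same early and late after APAP. The log2 difference between LKO and control pools at 72 to 96 h minus that at 12 to 48 h was -6.50 for *Saa1*, -8.06 for *Saa2*, -3.04 for *Orm2* and -3.83 for *Lcn2*, with edgeR adjusted p of 0.0208, 0.025, 0.0401 and 0.0381. The periods were chosen after the values had been seen, and each rests on 2 or 3 pools per genotype. No gene was called without the 12 h or without the 24 h pools.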

How the results depend on the processing

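Counts are of members called. With DESeq2, 2 were called at 24 h (3731 of 13328 genes), 3 at 96 h (342) and 8 for the difference between periods (172 of 12782). With library size scaling, 3 were called at 24 h (3561 of 13328 genes). Fits within 1 genotype set 1 pool against 4 mice and assume that the pool varies like the mice, so they do not compare genotypes. Control libraries alone gave 2 at 24 h (1670 of 12603 genes), 5 at 72 h (1512) and 1 at 96 h (9), and LKO libraries alone 2 at 24 h (1023 of 12812 genes), 1 at 48 h (172) and 0 at 72 h (296). Summing the near-identical genes left 2 for the difference between periods (17 of 12779 genes). Over 12 to 48 h only (added after seeing the data, like the test between periods), 3 members (192 of all genes) differed between genotypes, and over 72 to 96 h only, 8 (999). Leaving out 1 library or time gave 3 to 4 at 12 h, 1 to 3 at 24 h, 2 to 3 at 48 h, 2 to 5 at 72 h, 0 to 1 at 96 h and 0 to 5 between periods, with 0 to 0 in the other comparisons.

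The LKO to control difference at 0 h turned to -1.54 for *Saa1* and -1.44 for *Saa2* without LKO mouse 1 (ranges -1.54 to 1.32 and -1.44 to 2.38). Over 12 to 96 h, *Saa2* was -0.13 with no time block, -4.97 at 72 to 96 h only and -1.12 to 1.95 on leaving out a time (-0.87, -1.12 and -0.41 without 12, 24 and 48 h), and *Lcn2* was 0.26 at 12 to 48 h only. At 96 h in LKO libraries alone, *Saa1* was -2.27 and *Saa2* -2.49. Both genes in that 1 pool lay within the range of the LKO mice, and LKO mouse 1 (676 and 176 CPM) alone was far above the pool. The cause of the other changes was not tested.

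The replicate numbers do not pair the mice (correlations of same-numbered mice, 0.21, -0.03 and 0.10 in the HKO cohort and -0.40 to 0.23 in the other). With the replicate block, 3 members (*Saa2*, *Hp* and *Lcn2*) and 263 of 12397 genes were called between null and HKO, and the LKO to control values at 0 h were -0.59 for *Saa1* and -0.22 for *Saa2*.

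Over all genes, DESeq2 called 331 between null and HKO (edgeR, 119), 606 over 12 to 96 h (74), 342 at 96 h (62) and 172 between periods (19). Of the counts and medians, 95 stayed close to the reported value and 14 moved under the settings other than leaving out a library or time, and 85 stayed and 6 moved under those. At 12 to 96 h, 1 pool per genotype limits every comparison of single times. *Saa3* had 1.38 to 18.5 CPM over the 24 libraries, so its values rest on few reads. Leaving out single mice at 0 h, an alternative added after seeing the data, moved the peak folds of *Saa1*, *Saa2*, *Orm2* and *Lcn2* in LKO pools and of *Lcn2* in control pools by over 1.5 times.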
